A study of Mus musculus with 10 samples.

Results

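The clustered protocadherin genes were followed through ChIP-seq peak lists of mouse cells with and without *Qk*, which the labels describe as oligodendrocytes differentiated in culture. They were taken from the GENCODE M21 annotation as the protein-coding genes of the alpha (*Pcdha*), beta (*Pcdhb*) and gamma (*Pcdhg*) clusters, by their symbols alone, which gave 57 genes out of 21951 protein-coding genes. The alpha cluster held 14 of them, the beta cluster 22 and the gamma cluster 21. The rule that picks single genes uses no measured value. GENCODE M21 gives the symbol *Pcdha11* to a pair of neighboring genes, of which the first is called *Pcdha10* here, as in RefSeq. All coordinates are those of the mouse genome build mm10.

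Clustered protocadherins are cell-surface adhesion proteins of the cadherin superfamily, best known in the nervous system, where the combination of isoforms that a neuron makes helps it to tell its own branches from those of other cells. In the alpha and gamma clusters each gene begins with its own promoter and its own large variable exon, which encodes the extracellular, transmembrane and first cytoplasmic part of the protein, and this exon is then spliced to 3 constant exons that all genes of the cluster share. Beta genes consist of a single large exon and have no constant exons. Most of these promoters are chosen stochastically in single neurons with the help of the zinc finger protein Ctcf and cohesin, whereas the so-called C-type genes (*Pcdhac1*, *Pcdhac2*, *Pcdhgc3*, *Pcdhgc4* and *Pcdhgc5*), at the downstream ends of the alpha and gamma clusters, are regulated apart from the others. *Pcdhgc3* is known for broad expression, including in glia.

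The study examined whether the RNA-binding protein Qki, whose nuclear isoform is Qki-5, acts on transcription in oligodendrocytes together with the sterol regulator Srebp2, and mapped both proteins and Pol II, the RNA polymerase of protein-coding genes, on chromatin. Neural stem cells from brains of postnatal day 1 *Nestin-CreERT2*;*Qk* L/L pups were grown in culture and differentiated for 3 days with the thyroid hormone T3 and B-27, and the labels give the strain of all libraries as an FvB/C57BL6 hybrid. In these cells a tamoxifen-dependent Cre is driven by the *Nestin* promoter, and 4-hydroxytamoxifen was used to delete the floxed *Qk* exon 2 in the group labelled *Qk*-/-. The other group is labelled wild type (WT), and what it received in place of 4-hydroxytamoxifen and how many pups were pooled are not given in the sources used here. Each antibody was used once in each genotype, which gave 6 peak lists from 6 libraries and 4 inputs, with the Pol II and Qki-5 libraries at passage 7 and the Srebp2 libraries at passage 8. A peak is a stretch of DNA recovered more often with the antibody than from the input, and its fold enrichment is the ratio of the pileup at its highest point, the summit, to the local background.

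No library was replicated, so the spread between cultures is unknown and no test was made between genotypes. The WT Pol II list held 32280 peaks against 12835 in *Qk*-/- cells, the Qki-5 lists 7539 against 427, and the Srebp2 lists 77 against 28. The deposited WT Qki-5 and Srebp2 lists are shorter than the peak sets that the study describes for these antibodies, so a gene without a peak in them may have had one in a longer list. Read totals are not in the lists, so depth is unknown, and a gene that has a peak in the WT list and none in the shorter *Qk*-/- list may fall below the calling threshold of that list. At *Qk* itself, the WT Qki-5 list had a promoter peak of 8.13-fold and the *Qk*-/- Qki-5 list had none, while Pol II had one in both genotypes (14.9-fold in WT, 9.48-fold in *Qk*-/-). Of the oligodendrocyte marker genes, *Olig1*, *Olig2* and *Cnp* had a WT Pol II promoter peak, and the promoters of *Mbp*, *Mag*, *Mog* and *Mobp*, which encode myelin proteins, and of *Sox10*, *Myrf*, *Cldn11* and *Aspa* had none. All 4 neural stem cell markers (*Nes*, *Sox2*, *Pax6* and *Hes1*) had one, beside 54.1% of all protein-coding genes. So did 2 of 3 precursor markers, 3 of 5 astrocyte markers, 3 of 7 neuronal markers and 0 of 3 microglial markers. The peaks of the Pol II and Qki-5 lists carry names that start with mNSC, while the names in both Srebp2 lists start with OL, and the part of the state of the cells in the results was not tested. The libraries are of bulk cultures, in which weak occupancy in many cells and strong occupancy in a few cannot be told apart.

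Pol II was found at few clustered protocadherin promoters. In WT cells, 6 of the 57 genes had a Pol II peak within 2 kb of a transcription start site (TSS), which is 10.5% (95% Clopper-Pearson interval 3.96 to 21.5%), whereas 54.1% of all protein-coding genes had one. The interval covers counting error only and treats genes as separate draws. The 6 genes were *Pcdhac2* in the alpha cluster, *Pcdhb16* in the beta cluster and *Pcdhgb1*, *Pcdhgc3*, *Pcdhgc4* and *Pcdhgc5* in the gamma cluster. They are thus 1 of 14, 1 of 22 and 4 of 21 genes of the clusters. The same 6 genes had a Pol II peak over their variable exon, and no further variable exon was touched by a peak. A variable exon begins at or near the TSS and lies in large part within the promoter window. The promoter and exon counts are therefore not separate results.

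The C-type genes made up most of this set. Of the 5 C-type genes, 4 had a WT Pol II promoter peak (80.0%, interval 28.4 to 99.5%), all but *Pcdhac1*. Of the other 52 genes, 2 had one (3.85%, interval 0.469 to 13.2%). None of the 12 alternate alpha genes and none of the 12 gamma A genes did, which for 12 genes allows a share of up to 26.5%. *Pcdhb16* was the only one of 22 beta genes and *Pcdhgb1* the only one of 6 gamma B genes with a peak. *Pcdhgc4* and *Pcdhgc5* lie downstream of *Pcdhgc3* inside a nearly continuous block of WT Pol II peaks, so Pol II at their own promoters and Pol II that started at *Pcdhgc3* cannot be told apart.

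**Figure D1:**
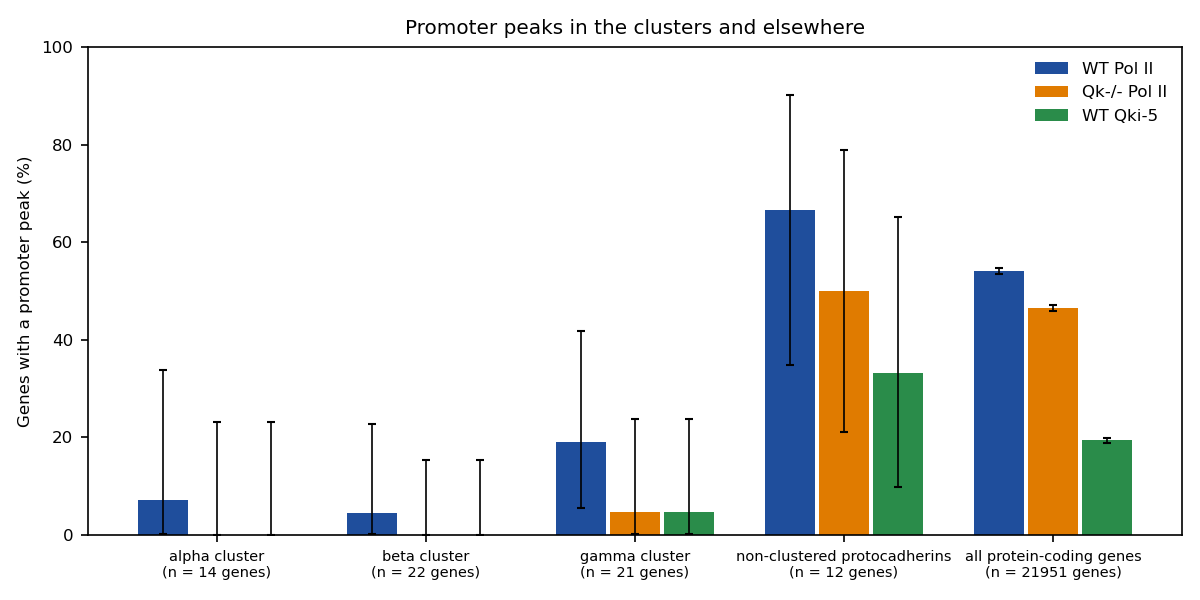
Percent of genes with a peak within 2 kb of a TSS (vertical axis) in the alpha, beta and gamma clusters, in 12 non-clustered protocadherin genes and in all 21951 protein-coding genes, for the WT Pol II, *Qk*-/- Pol II and WT Qki-5 lists (colors), with error bars that are 95% Clopper-Pearson intervals. The gamma cluster reaches 19.0% for WT Pol II, against 54.1% of all protein-coding genes.

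The peaks at the clusters differed widely in height. At *Pcdhgc3* (chr18:37806410-37841873, plus strand) the WT Pol II peak was 21.5-fold over input, rank 3192 of 32280 peaks in the list, with its summit 65 bp downstream of the TSS. *Pcdhac2* (chr18:37143503-37187661) had a peak of 8.69-fold, rank 9703, with its summit 240 bp downstream of the TSS. *Pcdhb16* (chr18:37477814-37483038) had one of 7.49-fold, rank 10898, at 84 bp, and a second of 4.25-fold inside its exon at 2008 bp. Among the 6 genes, then, 1 stood well above the rest.

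*Pcdhgc4* (chr18:37815079-37841873) had a peak of 7.17-fold, and lower peaks upstream that also reached into its promoter. The summit of the 7.17-fold peak was at chr18:37815454, 53 bp downstream of the nearest annotated TSS of the gene, which lies inside the stated start. At *Pcdhgc5* (chr18:37819513-37841873) the peak nearest to the start was 5.40-fold with its summit at chr18:37819746. That is 180 bp downstream of the nearest annotated TSS, which again lies inside the stated start. A higher peak of 7.19-fold lay 1970 bp downstream of that TSS, in the last part of the variable exon and within reach of the promoter of the noncoding gene *Gm38182*. *Pcdhgb1* (variable exon starting at chr18:37680233) had the weakest, 4.05-fold at 107 bp, rank 23822 and 328 bp wide. Most of these values were low for a promoter. Over the 11879 protein-coding genes with a WT Pol II promoter peak, the strongest peak had a median of 15.8-fold (quartiles 9.87 and 23.1), and over the 6 clustered genes the median was 7.34-fold. Only *Pcdhgc3* was above the median of all genes, at the 70.6 percentile, while *Pcdhac2*, *Pcdhb16*, *Pcdhgc5*, *Pcdhgc4* and *Pcdhgb1* lay at percentiles 19.8, 15.0, 14.1, 13.7 and 2.22.

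**Figure D2:**
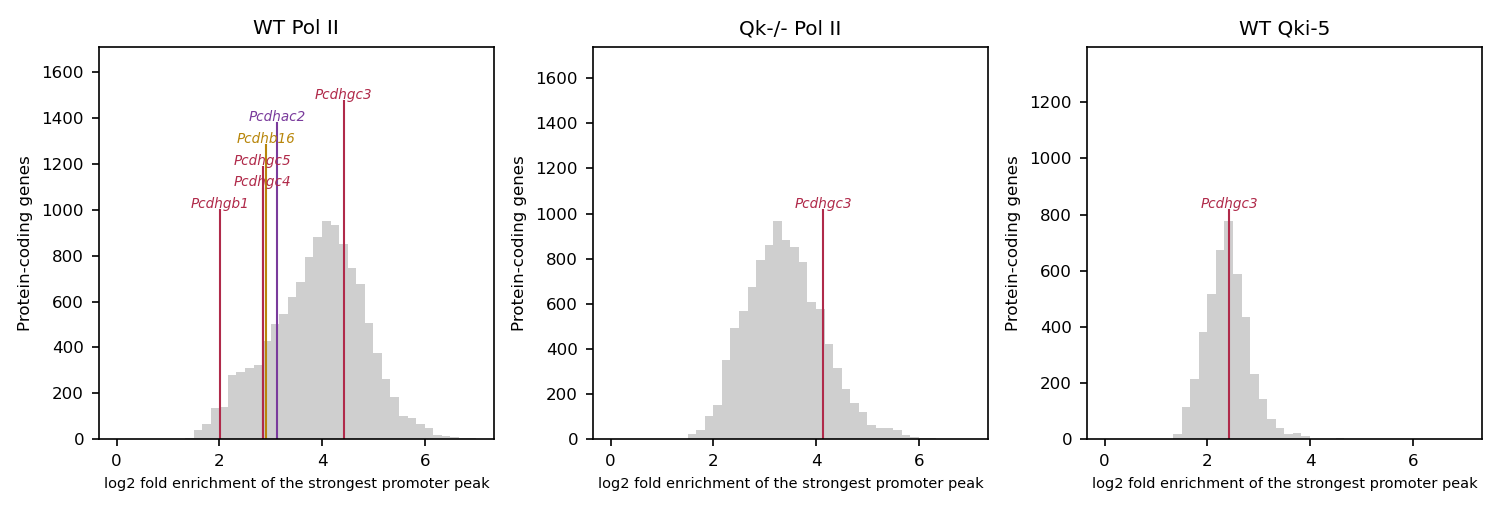
Distribution over protein-coding genes of the log2 fold enrichment over input of the strongest promoter peak (horizontal axis), as number of genes (vertical axis), in the WT Pol II, *Qk*-/- Pol II and WT Qki-5 lists. Colored lines mark clustered protocadherin genes (purple alpha, gold beta, red gamma), their lengths serve only to place the names, and *Pcdhgc3* is the only one with a line in all 3 panels.

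In *Qk*-/- cells, *Pcdhgc3* was the only clustered protocadherin gene with a Pol II promoter peak. That is 1 of 57 genes (1.75%, interval 0.0444 to 9.39%), against 46.5% of all protein-coding genes in this list. The peak was 17.6-fold over input, with its summit 96 bp downstream of the TSS. It ranked 1457 of 12835 peaks and lay at the 84.7 percentile of protein-coding genes with a peak. *Pcdhgc3* was therefore above the median of Pol II promoters in both lists, at the 70.6 percentile in WT. Its WT peak was 4896 bp wide and the *Qk*-/- peak 1460 bp.

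The other 5 genes, *Pcdhac2*, *Pcdhb16*, *Pcdhgb1*, *Pcdhgc4* and *Pcdhgc5*, had a Pol II promoter peak in the WT list only. So 1 of the 6 genes (16.7%) with a WT promoter peak also had one in *Qk*-/- cells, whereas 85.7% of all protein-coding genes with a WT peak did. The 5 genes had WT peaks at or below the 19.8 percentile of promoters by fold enrichment. When the WT list was reduced to its 12835 most significant peaks, to equal the length of the *Qk*-/- list, 5 of the 57 genes still had a WT promoter peak and 1 of them had a *Qk*-/- peak. The part of library depth and of enrichment in these differences was not tested.

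The position of Pol II within the clusters showed the same concentration at the downstream end of gamma. The alpha cluster spans chr18:36930184-37187661, the beta cluster chr18:37264938-37524479 and the gamma cluster chr18:37661793-37841873. WT Pol II had 3 peaks over the alpha cluster, 2 over beta and 20 over gamma, or 11.7, 7.71 and 111 peaks per Mb beside 11.8 per Mb over the genome. Alpha thus had about the density of the genome, and beta less. Peaks covered 0.844% of the alpha cluster, 0.331% of beta and 16.8% of gamma, against 1.17% of the genome.

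Within the gamma cluster, nearly all of the Pol II peaks lay from *Pcdhgc3* onward. The 142.6 kb before the *Pcdhgc3* promoter hold the promoters and variable exons of all gamma A and gamma B genes, but not their constant exons. This stretch had 1 WT Pol II peak, at *Pcdhgb1*. The 37.46 kb from the *Pcdhgc3* promoter to the end of the cluster had 19 peaks that together covered 79.7% of the sequence. All 3 constant exons of the gamma genes lie in this stretch, so Pol II found there cannot be assigned to one gamma gene. In *Qk*-/- cells, the first stretch had 0 Pol II peaks and the second had 8, which covered 11.0%.

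**Figure D3:**
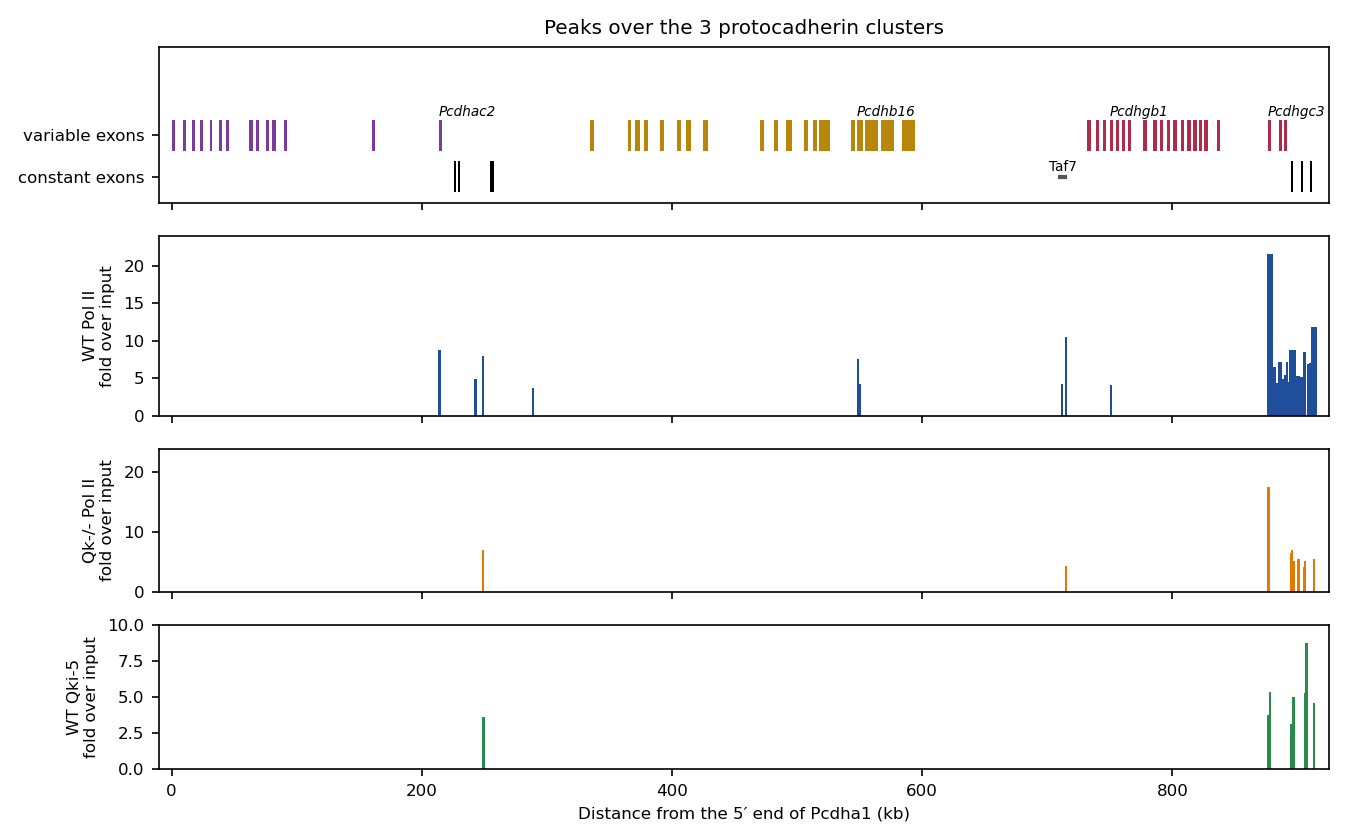
Peaks over the 3 clusters, with the distance from the 5′ end of *Pcdha1* in kb on the horizontal axis and fold enrichment over input on the vertical axes, for WT Pol II, *Qk*-/- Pol II and WT Qki-5. Each bar is 1 peak with its summit value over its whole width (narrow peaks are widened to be visible), and the top panel shows variable exons (purple alpha, gold beta, red gamma) and constant exons (black), which are widened in the same way. The gray line marks *Taf7*. Most bars stand at the right end, from *Pcdhgc3* onward.

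The WT Pol II peaks formed a nearly continuous block over the C-type end of the gamma cluster. They covered 100% of the *Pcdhgc3* variable exon, 87.7% of the 6.10 kb from there to *Pcdhgc4*, 89.5% of the *Pcdhgc4* exon, 92.7% of the *Pcdhgc5* exon, 69.9% of the 2.89 kb from there to the first constant exon, and 78.8% of the 16.9 kb from the first to the last constant exon. In *Qk*-/- cells, peaks covered 39.1% of the *Pcdhgc3* exon, 0% of the stretch to *Pcdhgc4*, 0% of the *Pcdhgc4* and *Pcdhgc5* exons, 11.6% of the stretch before the first constant exon and 13.9% of the constant region. The *Qk*-/- list thus had 1 peak at the *Pcdhgc3* start and 7 from shortly before the first constant exon onward, with none called over the *Pcdhgc4* and *Pcdhgc5* exons.

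The corresponding part of the alpha cluster looked different. Of the *Pcdhac2* variable exon, 28.4% was covered by WT Pol II peaks and 0% by *Qk*-/- peaks. Of the 31.5 kb from the first to the last alpha constant exon, WT Pol II peaks covered 4.05% and *Qk*-/- peaks 1.60%. Both WT peaks there lay at starts of minus-strand genes, one of 4.81-fold at *Gm38097* and one of 7.98-fold at *Gm10544*, and the alpha constant exons had no peak in any list. Between alpha and beta there was 1 WT Pol II peak, of 3.61-fold at chr18:37217838-37218092.

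The *Qk*-/- peaks in and just before the constant region were low. From 5′ to 3′, the 7 peaks had fold enrichments of 6.54, 7.02, 5.29, 5.25, 5.52, 4.29 and 5.17, beside a median of 8.43 over all peaks of that list. The second of them, at chr18:37825011-37825415, contained the first constant exon (chr18:37825021-37825079), which lay inside an 8.75-fold WT peak 5173 bp wide. The second constant exon (chr18:37833265-37833353) had no peak in any list. It lay in a gap of the WT Pol II block, between peaks of 5.11-fold and 4.65-fold. Constant exon 3 (chr18:37839903-37841873) contained a WT peak of 5.50-fold and the start of a 11.8-fold peak 5007 bp wide, whose summit was beyond the end of the cluster. That summit lay between the gamma cluster and the 3′ end of *Diaph1*, an actin regulator gene on the minus strand whose own promoter had Pol II peaks of 41.5-fold in WT and 12-fold in *Qk*-/- cells. ChIP peaks carry no strand, so transcription of the gamma genes, of *Diaph1* past its end and of the noncoding genes *Gm38182* and *Gm29994* in this region cannot be told apart.

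Such cover was rare among genes of this length. The span of *Pcdhgc3*, from its TSS to the end of the cluster, was covered by WT Pol II peaks to 82.7%. Over the 2459 protein-coding genes of 25 to 50 kb with a WT Pol II promoter peak, the median was 2.84% (quartiles 1.60 and 5.00), and *Pcdhgc3* lay at the 99.9 percentile. In *Qk*-/- cells its cover was 10.5%, beside a median of 1.25%. In this length class, 19 genes were covered to at least 50% in WT cells. Their median cover was 67.3% in WT and 5.19% in *Qk*-/- cells, and 15 (78.9%) were covered in *Qk*-/- cells no more than *Pcdhgc3* was. Both the 19 and the 15 include *Pcdhgc3* itself and *Pcdhgc4* (79.8% in WT, 9.97% in *Qk*-/-). *Pcdhgc4* lies inside the span of *Pcdhgc3*, so the same peaks are counted for both genes. These 19 genes were chosen by their WT cover, and *Qk*-/- Pol II peaks covered 0.358% of the genome against 1.17% for WT, so a lower *Qk*-/- cover follows in part from the choice and the shorter list, and these values are a description only.

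**Figure D4:**
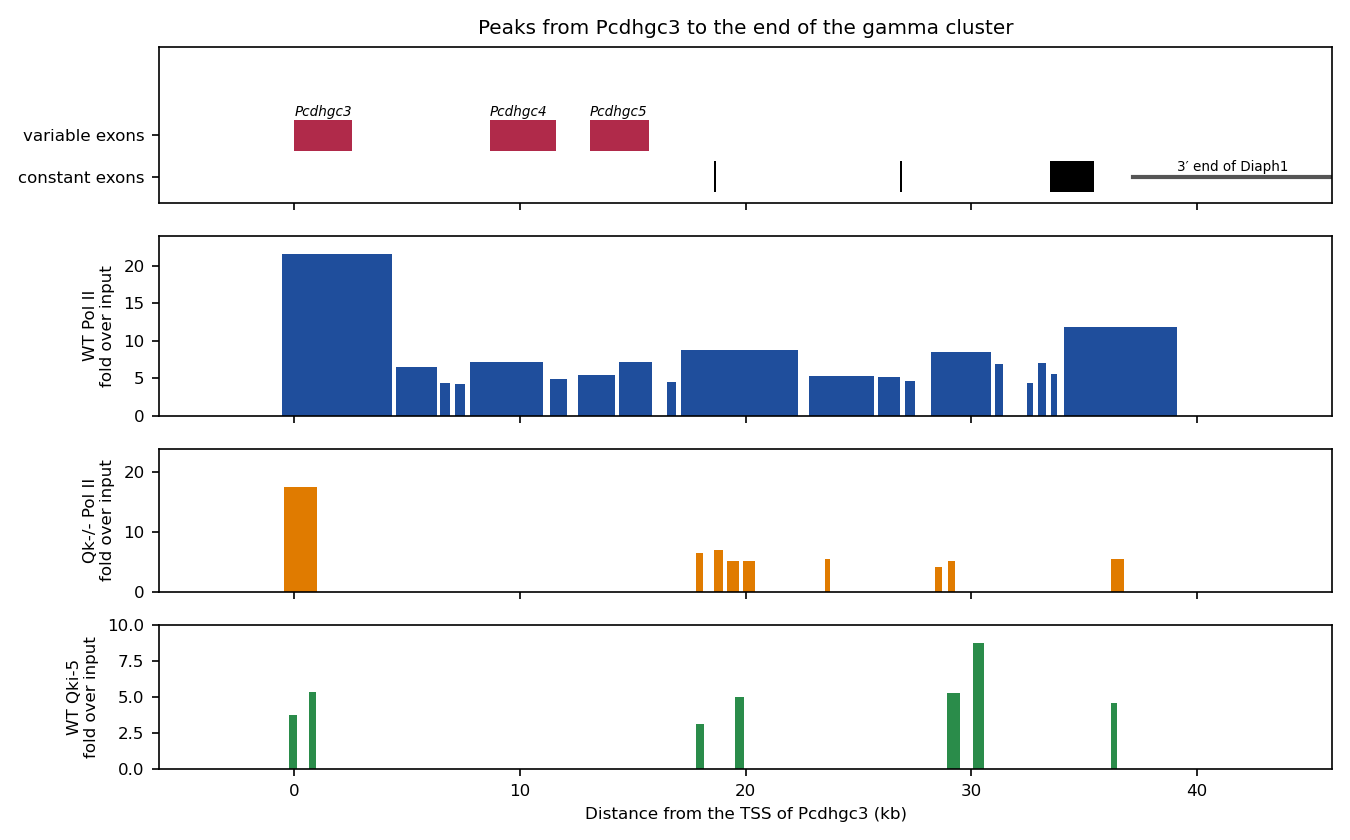
The downstream end of the gamma cluster, with the distance from the TSS of *Pcdhgc3* in kb on the horizontal axis and fold enrichment over input on the vertical axes, for WT Pol II, *Qk*-/- Pol II and WT Qki-5. Each bar is 1 peak with its summit value over its whole width, and the top panel shows the *Pcdhgc3*, *Pcdhgc4* and *Pcdhgc5* variable exons (red), the constant exons (black) and the 3′ end of *Diaph1* (gray). WT Pol II fills most of the stretch, while the *Qk*-/- Pol II and Qki-5 peaks are absent between the *Pcdhgc3* exon and the stretch before the first constant exon.

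In the deposited WT list, Qki-5 had a peak at 1 clustered protocadherin promoter, that of *Pcdhgc3*. This is 1.75% of the 57 genes (interval 0.0444 to 9.39%), against 19.4% of all protein-coding genes. *Pcdhgc3* had a pair of WT Qki-5 peaks, one of 3.78-fold with its summit 70 bp upstream of the TSS and one of 5.36-fold in the variable exon, 801 bp downstream. The median of the strongest Qki-5 promoter peak over all 4258 genes with one was 5.15-fold, so *Pcdhgc3*, at the 55.9 percentile, was close to the middle. Among all protein-coding genes with a WT Pol II promoter peak, 34.6% also had a Qki-5 promoter peak, and 1 of the 6 clustered genes (16.7%) did. The gene *BC037039*, on the opposite strand, also has a promoter under these peaks, so that Pol II and Qki-5 there cannot be assigned to *Pcdhgc3* alone.

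The other Qki-5 peaks of the clusters lay in introns. There were 7 WT Qki-5 peaks in the clusters, 1 in alpha, 0 in beta and 6 in gamma, all of the latter from the *Pcdhgc3* promoter onward. The strongest, 8.79-fold at chr18:37836477-37836965, was in the intron between gamma constant exons 2 and 3, with its summit 30.3 kb downstream of the *Pcdhgc3* TSS. It ranked 416 of 7539, at the 94.4 percentile of the list. A peak of 5.28-fold lay in the same intron, and one of 5.01-fold in the intron between the first and second constant exons. One of 3.15-fold, rank 7353 of 7539 and so among the weakest of the list, lay just before the first constant exon. It was also within the promoter window of the noncoding gene *Gm38182*. The single alpha peak, 3.63-fold at chr18:37178588-37178916, lay in the intron between alpha constant exons 2 and 3 at the start of the minus-strand gene *Gm10544*, where Pol II had peaks of 7.98-fold in WT and 7.10-fold in *Qk*-/- cells.

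Each of the 7 Qki-5 peaks overlapped a WT Pol II peak, beside 79.3% of all WT Qki-5 peaks. Of the 7, 5 overlapped a *Qk*-/- Pol II peak in a list where 55.0% of all Qki-5 peaks did, the exceptions being the strongest one and the alpha one. All 9 *Qk*-/- Pol II peaks in the clusters overlapped a WT Pol II peak (98.1% over the genome), while 5 of the 24 WT Pol II peaks with a summit inside the clusters overlapped a *Qk*-/- peak, against 33.8% over the genome. The *Qk*-/- Qki-5 list had no peak in the 3 clusters, so 0 of the 7 WT Qki-5 peaks overlapped one, beside 4.06% of all WT Qki-5 peaks. *Pcdhgc3* had no promoter peak in it, where 4.18% of all genes with a WT Qki-5 promoter peak had one. The list had a promoter peak at 0 of the 57 genes, which allows a share of up to 6.27%, beside 0.87% of all protein-coding genes, so a count of 0 is close to that background. Neither Srebp2 list had a peak in the clusters. Since these lists had promoter peaks at only 0.292% (WT) and 0.118% (*Qk*-/-) of all protein-coding genes, a count of 0 among 57 genes is near that background and says little about Srebp2 there.

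The variable exons of the clusters resemble one another, which bears on whether reads can be placed on 1 gene. Of the 57 variable exons, 54 had under 10% of their 100-base windows repeated elsewhere in the region of the clusters, counted on both strands and without mismatches. The median share was 5.21% in alpha, 0.083% in beta and 0% in gamma, and the highest was 13.0%. All C-type exons had 0% repeated windows. *Pcdhgb1*, with 9.69%, was the gene with a peak that shared most sequence with others. The starts of neighboring genes lay at least 4.13 kb apart, so the promoter windows around these starts did not overlap.

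The promoters differed in base composition. From 250 bp before to 50 bp after the TSS, the 57 promoters had a median GC content of 39.7% (range 30.7 to 63.0%), against 55.7% over 21938 protein-coding promoters and 60.7% over those with a WT Pol II peak. The *Pcdhgc3* promoter had the highest GC content of the 57, 63.0%, followed by *Pcdhac1* with 60.7%, *Pcdhgc5* with 54.7% and *Pcdhac2* with 52.3%. The 5 C-type promoters had a median of 54.7% and the other 52 a median of 39.5%. A high GC content did not go with a Pol II peak in every case, since *Pcdhac1* had none and *Pcdhgb1*, at 38.0%, had one.

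The density of CpG dinucleotides is given as the ratio of the observed to the expected number, in which vertebrate CpG islands stand high. Within 500 bp on each side of the TSS, the median ratio was 0.684 in alpha, 0.379 in beta and 0.596 in gamma, against 0.743 in protein-coding promoters with a WT Pol II peak and 0.225 in those without. Alpha promoters were therefore near the Pol II-bound genes in this measure, although 13 of 14 had no peak. In GC content they were not near them, with a median of 38.7% against 60.7% from 250 bp before to 50 bp after the TSS. At *Pcdhgc3* the ratio was 0.788, at *Pcdhac2* 0.681 and at *Pcdhgc4* 0.672. At *Pcdhgb1* it was 0.552, at *Pcdhgc5* 0.233 and at *Pcdhb16* 0.219. The 6 genes with a Pol II peak thus spread over almost the whole range of the clusters. Their order depends on the window. From 250 bp before to 50 bp after the TSS, the ratio was 0.875 at *Pcdhgc3*, 0.848 at *Pcdhgb1* and 0.595 at *Pcdhac2*. It was 0.445 at *Pcdhgc4* and 0.27 at both *Pcdhgc5* and *Pcdhb16* in that window.

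**Figure D5:**
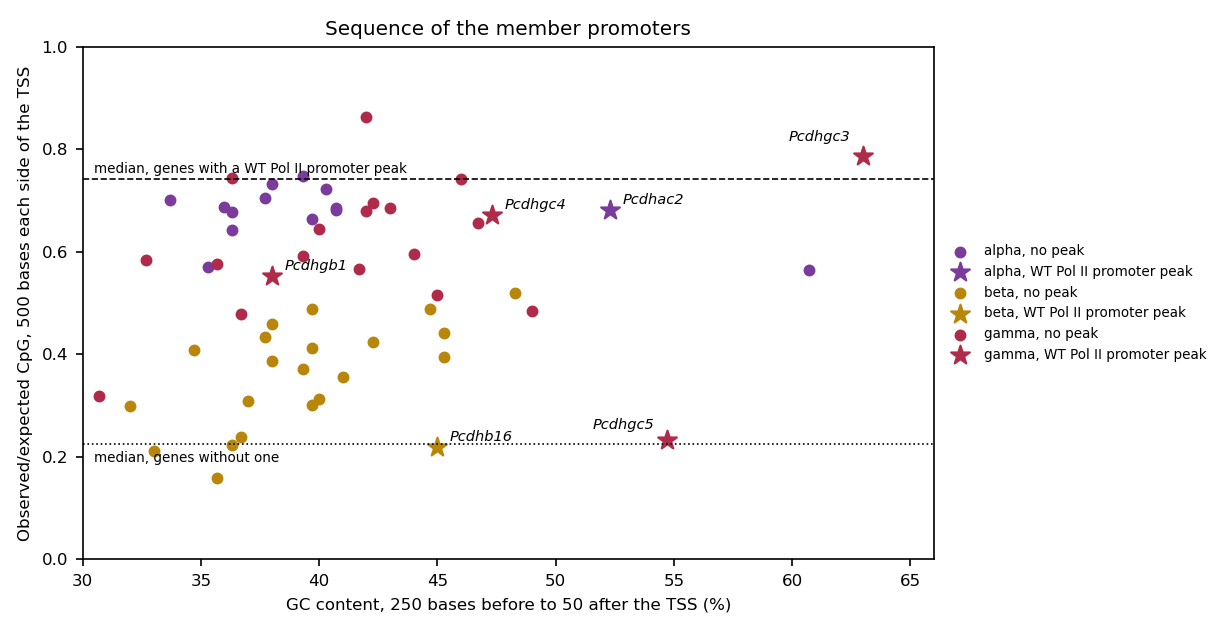
GC content of the promoter from 250 bases before to 50 after the TSS (horizontal axis, percent) and observed to expected CpG ratio within 500 bases of the TSS (vertical axis) for the 57 clustered protocadherin genes, colored by cluster. Stars are the 6 genes with a WT Pol II promoter peak, and the lines are the medians of protein-coding genes with (0.743) and without (0.225) such a peak. Beta promoters lie lowest and *Pcdhgc3* has the highest GC content.

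The protocadherin genes outside the clusters, which are scattered over several chromosomes, had promoter peaks at shares nearer to those of all genes, given here without a test. Of 12 such genes, 8 had a WT Pol II promoter peak (66.7%, against 54.1% of all protein-coding genes), 6 a *Qk*-/- Pol II peak (50.0%, against 46.5%) and 4 a WT Qki-5 peak (33.3%, against 19.4%). Of the 8 with WT Pol II, 4 (50.0%) had a Qki-5 peak, against 34.6% of all genes with a WT Pol II promoter peak. *Pcdh10* had the strongest WT Pol II peak, 47.5-fold (13.1-fold in *Qk*-/-), followed by *Pcdh1* with 27.7-fold (5.74-fold in *Qk*-/-), *Pcdh9* with 26.7-fold (15.9-fold) and *Pcdh11x* with 20.8-fold (5.27-fold). These stood above *Pcdhgc3* in the WT list, except *Pcdh11x*, while in the *Qk*-/- list none of them reached the 17.6-fold of *Pcdhgc3*. *Pcdh7* (7.79-fold) and *Pcdh17* (6.60-fold) had a Pol II promoter peak in WT only, *Pcdh19* (7.33-fold and 6.21-fold) and *Pcdh18* (3.87-fold and 4.29-fold) had one in both, and *Pcdh8*, *Pcdh12*, *Pcdh15* and *Pcdh20* had none. Qki-5 was found at *Pcdh17* (5.61-fold), *Pcdh1* (5.29-fold), *Pcdh11x* (4.51-fold) and *Pcdh9* (3.65-fold).

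Genes for known regulators of the clusters had Pol II at their promoters almost throughout. Of 18 such genes, 18 had a WT Pol II promoter peak (54.1% of all protein-coding genes did), 17 a *Qk*-/- peak (all but the cohesin gene *Smc1a*, against 46.5% of all genes) and 8 a WT Qki-5 peak (44.4%, against 19.4%, and 34.6% of all genes with a WT Pol II promoter peak). *Ctcf* had Pol II peaks of 17.7-fold in WT and 9.23-fold in *Qk*-/- cells and no Qki-5 peak. Qki-5 was found at *Zfp143* (8.65-fold), a zinc finger gene, at *Stag1* (8.28-fold), *Rad21* (5.10-fold) and *Smc3* (3.19-fold), which encode cohesin subunits, at *Nipbl* (7.12-fold), which encodes the cohesin loader, at the cohesin regulator gene *Pds5b* (4.43-fold) and at the DNA methyltransferase genes *Dnmt3a* (4.32-fold) and *Dnmt1* (3.59-fold). *Smchd1*, which encodes a silencing factor of these clusters, had Pol II peaks of 20.8-fold and 13.3-fold and no Qki-5 peak. *Tet3*, which encodes a methylcytosine dioxygenase, had a peak in the *Qk*-/- Qki-5 list (5.89-fold) and none in the WT Qki-5 list.

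Genes for partners of the proteins gave a like picture. The 10 genes encode proteins that bind the cytoplasmic part, act downstream of it or cleave protocadherins. Of these, 9 had a Pol II promoter peak in both genotypes. Among all protein-coding genes, 54.1% had one in WT and 46.5% in *Qk*-/- cells. WT Qki-5 had a promoter peak at 5 of the 10, against 19.4% of all protein-coding genes. Of the 9 with WT Pol II, 5 (55.6%) had a Qki-5 peak, against 34.6% of all genes with a WT Pol II promoter peak. *Ptk2b*, a kinase gene, had no promoter peak in any list. *Ctnnb1*, which encodes beta-catenin, had the strongest peaks, with Pol II at 68.7-fold in WT and 75-fold in *Qk*-/- cells and Qki-5 at 7.38-fold. *Adam10*, the gene of a protease that sheds protocadherins, had Qki-5 at 6.24-fold, and *Wasf1*, of the actin-regulating WAVE complex, at 7.16-fold. *Wasf1* was also the only one of the 10 with a *Qk*-/- Qki-5 peak (4.19-fold).

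Protein-coding genes beside the clusters showed that Pol II peaks were called close by. *Zmat2*, upstream of alpha, had WT Pol II at 25-fold and *Qk*-/- Pol II at 4.51-fold. *Taf7*, which encodes a subunit of the basal transcription machinery and lies between beta and gamma, had 10.5-fold and 4.34-fold, and its neighbor *Slc25a2* had none. *Diaph1* also had a Qki-5 promoter peak of 7.90-fold. At each of *Zmat2*, *Taf7* and *Diaph1*, Pol II also had a promoter peak in *Qk*-/- cells, as did 85.7% of all protein-coding genes with one in WT. Their WT peaks were higher than those of the clustered genes with a Pol II promoter peak in WT only.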

How the data were processed

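The authors trimmed reads, aligned them to mm10, removed duplicates and used MACS2 2.1.2 to call peaks in single libraries over input, with 0.05 as the q-value limit. For the alignment the methods name Bowtie2, while Bowtie 1.2.2 stands in the submitters' processing notes. Each deposited list gives fold enrichment (a ratio of summit pileup to local background), −log10 p and −log10 q-values, and a score deposited by the authors that is 10 times the −log10 q-value. No read totals are given, so depth and its precision are unknown, and fold values were ranked only within a list.

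Promoters were the regions within 2 kb of every GENCODE M21 TSS of a gene, and a peak counted when it overlapped one by at least 1 bp. Sequence features came from the mm10 genome. Python 3.11.15, pandas 2.3.3, numpy 2.4.6, scipy 1.17.1 and matplotlib 3.10.9 were used. On simulated data with 3000 promoters, the overlap counting found 200 of 200 planted peaks and counted 0 of those planted outside. Named genes were the clustered genes with a promoter or exon peak, the non-clustered, regulator, partner and marker lists, genes in or beside the clusters, and *Qk*. Some marker results are not reported here. The members and lists were chosen with earlier results of these data known. A planned search for the Ctcf motif is not reported here, because its letters came from no deposited or reference file. The gene-length comparison, the repeated windows, assignment to the nearest TSS and clusters without the *Pcdhgc3* end were added after seeing the data.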

Additional observations from a re-analysis of the deposited data

How the results depend on the processing

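Under 14 alternative settings, 138 values were recomputed for results above 0, of which 127 stayed within 1.5 times the value reported. The other 93 values belong to results of 0 and all stayed 0. Stricter settings cannot change a 0, whereas the promoter window of 2.5 kb and extended cluster spans could have raised it. The 6 genes with a WT Pol II promoter peak numbered 5 or 6 under each setting tried, which were promoter windows of 1 and 2.5 kb, q-values below 0.01, at least 5-fold enrichment, summits inside the promoter, 5′ TSSs only, the nearest TSS only and the shortened WT list. With a fold enrichment of at least 5, peaks in the clusters fell from 25 to 16 for WT Pol II and from 7 to 4 for WT Qki-5, and genes with a WT Qki-5 promoter peak went from 4 to 2 of the non-clustered genes, from 8 to 4 of the regulators and from 5 to 3 of the partners, whose *Qk*-/- Qki-5 count went from 1 to 0. In the shortened WT list, 12 WT Pol II peaks lay in the clusters. Without the stretch from the *Pcdhgc3* promoter onward, a setting chosen after seeing the data, there were 6 WT Pol II, 1 *Qk*-/- Pol II (of 9) and 1 WT Qki-5 peak. When peaks had to overlap by 50% of each, the number of genes with shared WT and *Qk*-/- Pol II peaks was 0 in place of 1, since the WT peak at *Pcdhgc3* was much wider. No paired analysis was possible because the labels give no replicate numbers and each antibody and genotype has 1 library.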
